A study of Mus musculus with 27 samples.

Results

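The uterus of hormone-deprived female mice was compared between first-generation hybrids (F1) and the inbred strain C3H. The comparison took the 3 F1 arrays and the 3 C3H arrays of vehicle-treated animals, which are 6 of the 27 arrays of the series, by their sample titles. The F1 animals came from C57BL/6 (B6) and C3H/HeJ parents, so that each carried 1 B6 and 1 C3H chromosome set, and the C3H animals were C3H/HeJ. The labels do not state the direction of the cross. All were females 8 weeks of age whose ovaries had been removed, and all rested for 1 to 2 weeks before they received saline with ethanol as the vehicle. The labels give no collection time for the vehicle animals. The rest of the series holds B6 vehicle uteri and uteri of all 3 genotypes taken 2 h or 24 h after 17β-estradiol (E2) at 40.0 µg/kg in 0.1 ml. Tissue came from 3 animals per treatment group. Which animal or pool of animals each array shows is not given, so the p-values here measure only the spread between these samples, which may be technical.

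The uterus consists of a luminal and glandular epithelium, a stroma rich in blood vessels and immune cells, and an outer smooth muscle, the myometrium. Removal of the ovaries takes away the estrogen that normally drives epithelial division and secretion, so the vehicle state is the resting baseline from which an estrogen response starts. C3H and B6 mice are known to differ in many genes of immunity, among them the class I and class II major histocompatibility genes and the clustered receptors of natural killer cells.

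Each level below is the log2 processed intensity minus the 75th percentile of the same array, so that 0 is that percentile and 1 unit is a factor of 2. A difference is the F1 mean minus the C3H mean on that log2 scale, with the standard error (SE) of a limma model fitted to all 27 arrays, and a gene was called where the Benjamini-Hochberg adjusted p was under 0.05 over 21866 genes. Each gene was read by 1 probe of 60 bases. On the F1 arrays 74.1% to 76.3% of probes were well above background, and on the C3H arrays 75.7% to 79.4%. Pearson correlations over all genes were 0.9934 to 0.9956 among the F1 arrays and 0.9943 to 0.9958 among the C3H arrays. F1 replicate 1 had the most genes over 1 log2 from its group mean, 151, against 80 to 113 on the other 5 arrays. The 3 C3H arrays lay on 1 slide and the F1 arrays on other slides, so slide and genotype cannot be told apart. As a random block, slide gave a correlation of 0.00688 and 3022 called genes. Since the 2 groups share no slide, that fit cannot test a slide effect on their difference.

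Of 4 genes listed as a check of the genotype labels, 3 were called, each with F1 between C3H and B6. H2-Ea encodes the alpha chain of a class II molecule that B6 mice lack. Its levels were -6.03, -5.82 and -5.99 in F1 and -5.30, -4.92 and -4.82 in C3H, and in B6 it was not well above background on any vehicle array. F1 was below C3H by 0.94 log2 (SE 0.16, adjusted p = 0.000485). Nnt, a mitochondrial transhydrogenase deleted in a common B6 substrain, differed by -0.40 (adjusted p = 0.00073). Its further probes gave -0.31, -0.40 and -0.04, the last with an SE of 0.20. Glo1, a glyoxalase, differed by -0.77 (adjusted p = 0.00552). For Pde6b, a photoreceptor phosphodiesterase, the difference was -1.04 with adjusted p = 0.118, and no F1 array was well above background. All 14 epithelial, all 12 stromal and all 14 smooth muscle markers were well above background on all 6 arrays. The same held for 6 of 10 ovary and oviduct markers and for 19624 of the 21866 genes tested. Genes were tested only where every array of 1 or more groups showed them well above background. Full detection of a list was therefore close to set in advance and cannot check the tissue label.

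In total 3126 of 21866 genes (14.3%) were called between F1 and C3H vehicle uterus. Of these, 1168 were higher in F1 (5.34% of the genes tested) and 1958 lower (8.95%), and the median difference over all genes was -0.04. The split depended on the scaling, since 37.4% of the calls were higher in F1 here, 45.3% with median scaling, 48.1% with quantile normalization and 23.7% with no scaling. Most of the calls were small: 814 (3.72%) were at least 2-fold, with 306 higher (1.4%) and 508 lower (2.32%). F1 and C3H values did not overlap in 7889 genes (36.1%), which included 3064 of the 3126 called genes. The median called difference was 0.55 among higher and -0.68 among lower genes. At an unadjusted p under 0.05 there were 2108 higher and 3786 lower genes.

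The genes with the largest positive difference were read by probes whose middle 30 bases follow, shown because probes of 1 gene did not always give the same answer. All are 5′ to 3′ and no letters are capitalised, since none of them shared a run of 16 or more bases with a probe of another gene. Positions are those of the whole probe on mm7, the build of the array files, and their place in exons was not analysed here.
Trim12a, chr7:100356374-100356433, minus strand: tcacttacatcaggtgggtaaagaccatgt
Zfp874a, chr13:64933609-64933668, minus strand: ctgttgttgtggtataaactgctcctggaa
Gcnt1, chr19:17027225-17027284, minus strand: gtcacgtatcgagtagagttcattttaaga
Best1, chr19:9665335-9665394, minus strand: taatagtcctgcctgaaaacacctgtattt

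Trim12a, a tripartite motif gene of the group that holds the retrovirus restriction factor Trim5, had the largest difference. Its levels were 1.66, 1.45 and 1.39 in F1 and -3.27, -5.02 and -6.02 in C3H, beside 3.35, 2.55 and 2.53 in B6. All F1 arrays were thus far above all C3H arrays and below the B6 arrays. The difference was 6.27 log2 (SE 0.42, adjusted p = 1.13e-09), or 77.3-fold. A further Trim12a probe at chr7:100360703-100360762 gave a smaller difference of 2.82 in the same direction.

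Zfp874a, a zinc finger gene, stood at -0.97, -0.88 and -1.04 in F1 and at -5.53, -6.07 and -6.53 in C3H, a difference of 5.08 (SE 0.30, adjusted p = 1.36e-10). Best1, a calcium-activated anion channel gene, stood at -0.82, -0.86 and -0.93 in F1 and at -4.21, -4.97 and -4.58 in C3H, a difference of 3.72 (SE 0.18, adjusted p = 1.5e-11). Its further probe was well above background on all F1 arrays and on no C3H array.

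Gcnt1, a glycosyltransferase that branches O-linked sugar chains, was at 1.07, 1.00 and 0.91 in F1 and at -2.58, -2.95 and -3.24 in C3H with the probe shown above. That difference was 3.92 (SE 0.14, adjusted p = 1.81e-13), or 15.1-fold. The 2 other Gcnt1 probes, at chr19:17029844-17029903 and chr19:17029824-17029883, gave -0.07 and -0.00. With the first of them the levels were -2.78, -2.73 and -3.01 in F1 and -2.74, -2.97 and -2.61 in C3H, which overlap. The large Gcnt1 difference therefore belonged to 1 of 3 probes.

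The other genes at the top spanned several roles. Prdm16, a transcriptional regulator known from brown fat, differed by 3.51, and Klra7, a natural killer cell receptor, by 3.43. H2-Q8, a class I gene of the Q region, differed by 3.33, with levels of -1.01, -1.09 and -1.28 in F1 and -3.91, -4.66 and -4.81 in C3H. The zinc finger gene Zfp33b differed by 3.29 and the odorant receptor gene Olfr339 by 3.17. Rit2, a Ras-like GTPase of neurons, differed by 3.03, Atp6v1c2, a proton pump subunit, by 2.91 and H2ap, an X-linked histone-related gene, by 2.75. Adjusted p for these 8 genes ran from 3.22e-13 to 3.31e-06. None of them lost its call with any 1 of the 6 arrays left out.

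Over the 109 genes named by rule, 49 further probes of 42 genes passed the filter, and 41 of the 49 gave a difference of the same sign as the probe used and 8 the opposite sign.

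**Figure D1:**
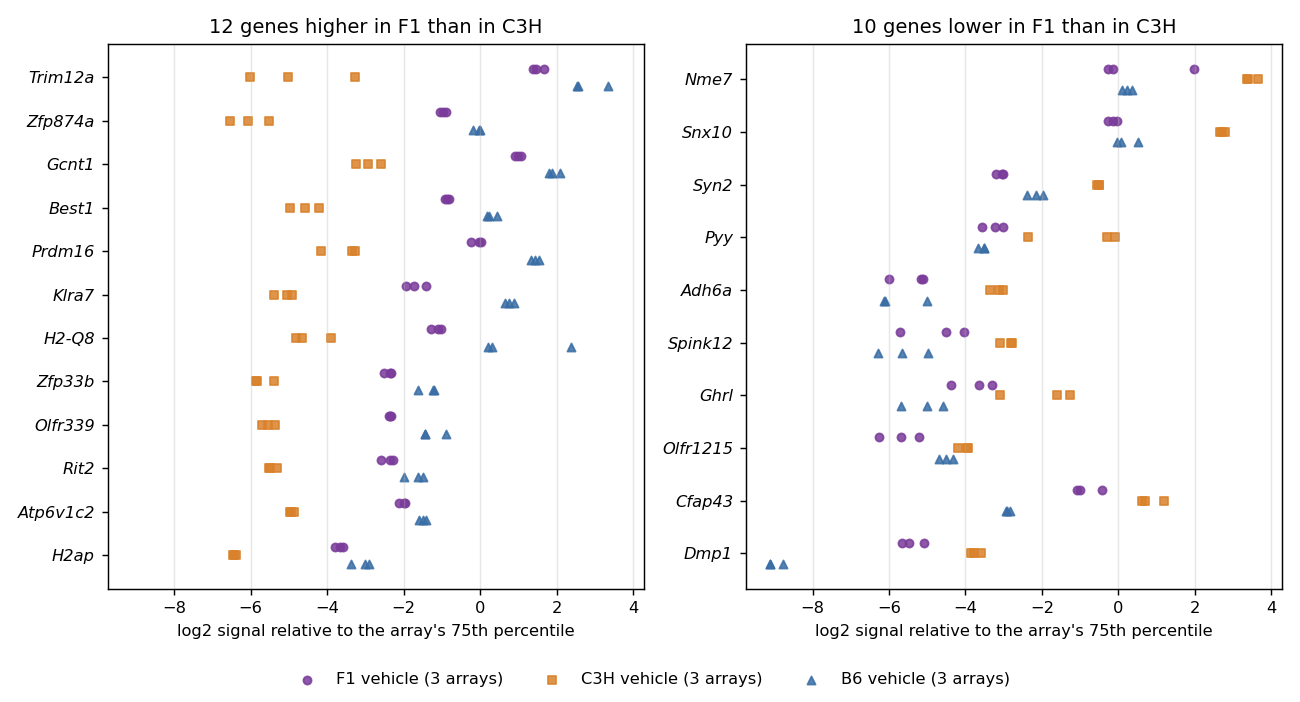
Level per array (log2 processed intensity minus the array's 75th percentile, horizontal axis) of named genes with large differences in either direction, with F1, C3H and B6 vehicle arrays as separate symbols. Trim12a lies at 1.39 to 1.66 in F1 and at -6.02 to -3.27 in C3H, and Snx10 at -0.26 to -0.04 in F1 and at 2.67 to 2.78 in C3H.

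Genes with large negative differences, higher in C3H, included several that are best known from nerve and endocrine cells. The middle 30 bases of the probes for 3 of them follow in the same form, shown so that the values below can be tied to a transcript position.
Nme7, chr1:164313802-164313861, plus strand: actgctaaatttaccaattgcacctgttgc
Snx10, chr6:51553368-51553427, plus strand: aggaattttcacctaagagggataacttgt
Syn2, chr6:115301986-115302045, plus strand: tgtagggtttctgttcaggtgtttcgttcc

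Nme7, a nucleoside diphosphate kinase family gene of cilia and centrosomes, was at 1.97, -0.26 and -0.15 in F1 and at 3.65, 3.39 and 3.37 in C3H. The difference was -2.95 (SE 0.55, adjusted p = 0.00096), and the further probe gave -3.01. F1 replicate 1 lay nearest to the C3H arrays and still below all of them.

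Snx10, a sorting nexin of endosomes, was at -0.04, -0.13 and -0.26 in F1 and at 2.71, 2.67 and 2.78 in C3H, a difference of -2.87 (SE 0.27, adjusted p = 2.18e-07). Syn2, a synaptic vesicle gene, was at -3.05, -3.02 and -3.20 in F1 and at -0.52, -0.51 and -0.56 in C3H, a difference of -2.56 (SE 0.22, adjusted p = 6.08e-08), and its other 2 probes gave -1.67 and -2.97. Both genes had narrow and well separated groups. In B6, Snx10 stood at 0.52, 0.06 and -0.02, nearer to F1 than to C3H. Syn2 stood at -2.39, -2.16 and -1.96 in B6, so all F1 arrays lay below both the B6 and the C3H arrays.

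The peptide hormone genes Pyy, which encodes peptide YY of the gut, and Ghrl, which encodes ghrelin, shared an outlying array. Pyy was at -3.56, -3.21 and -3.01 in F1 and at -0.10, -2.35 and -0.30 in C3H. Ghrl was at -4.39, -3.30 and -3.65 in F1 and at -1.25, -3.10 and -1.60 in C3H. In both, C3H replicate 2 lay nearer to the F1 arrays than the other C3H arrays did. The differences were -2.35 (adjusted p = 0.00118) and -1.79 (adjusted p = 0.00841), and the Ghrl call was lost without F1 replicate 1 or C3H replicate 1 (adjusted p = 0.0520 to 0.0614).

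The remaining genes of this group were Adh6a, an alcohol dehydrogenase (-2.27), Spink12, a protease inhibitor (-1.85), the odorant receptor gene Olfr1215 (-1.70), Cfap43, a gene of cilia (-1.68), and Dmp1, a gene of bone and tooth mineralisation (-1.67). Their adjusted p ran from 9.25e-06 to 0.00286. Dmp1 was well above background on all F1 and C3H arrays and on no B6 vehicle array. For Cfap43 the F1 levels of -0.44, -1.09 and -1.01 lay between C3H at 0.69, 0.62 and 1.19 and B6 at -2.84, -2.91 and -2.94.

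Some genes were well above background on every array of 1 genotype and on none of the other, 48 called genes in F1 alone and 165 in C3H alone. The share of probes well above background was 74.1% to 76.3% on the F1 arrays and 75.7% to 79.4% on the C3H arrays. The part of this imbalance in the 2 counts was not tested. The difference of such a gene is a lower bound, taken against the dimmest signal called well above background on each array. Zfp939, a zinc finger gene, was at least 7.09-fold higher in F1, and the natural killer cell receptor genes Klra10 and Klra1 at least 5.81-fold and 5.77-fold. Tmc5, a transmembrane channel-like gene, was at least 3.37-fold higher, and its probe shared a run of 18 bases with a probe of another gene. In the other direction Ralyl, an RNA-binding protein gene, was at least 4.56-fold lower in F1, the interferon-induced chemokine gene Cxcl11 at least 3.1-fold, and the odorant receptor genes Olfr1349 and Olfr689 at least 2.84-fold and 2.67-fold. The call of Cxcl11 was lost with any 1 of the 6 arrays left out (adjusted p = 0.0631 to 0.101).

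The Ly49 receptors differed as a family, one singled out after its values were seen. These genes (Klra) encode lectin-like receptors with which natural killer cells read class I molecules, and their number and sequence are known to vary between inbred strains. Neighbouring genes are so alike that probes can share sequence. The stretches below show 2 such pairs, with the run that both probes of a pair share in capitals, 20 bases in the first pair and 17 in the second.
Klra7: tggatAAATTCCCTCATTGACTCTCcaatg
Klra15: tggacAAATTCCCTCATTGACTCTCtgaca
Klra6: cagAACTGCCAGCATTACAGcttacccctt
Klra9: taaagcaAACTGCCAGCATTACAGtgttcc

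Of 17 Ly49 genes measured, 14 were higher in F1 and none lower (82.4% called, beside 14.3% of all genes). Their median difference was 2.34, beside -0.04 over all genes. Of the 17, 9 were well above background on all 6 arrays, and 7 of those 9 were higher. Another 4 were well above background on all F1 arrays and on no C3H array, so they passed the filter through the group where they are high, and with these 4 at their lower bound the median was 2.13. In all 14 every F1 value was above every C3H value, and in 13 of them every F1 value was also below every B6 value. Klra7 stood at -1.94, -1.72 and -1.43 in F1, at -5.06, -4.92 and -5.39 in C3H and at 0.90, 0.75 and 0.64 in B6, a difference of 3.43 (SE 0.24, adjusted p = 2.25e-09). Klra8 stood at -2.81, -2.46 and -2.17 in F1 and at -4.88, -5.03 and -5.31 in C3H, a difference of 2.59 (SE 0.17, adjusted p = 7.35e-10). Klra2, Klra3 and Klra5 were the 3 that missed the threshold, with differences of -0.10, -0.27 and 0.16. With another background correction, chosen after seeing the data, the same count of 14 higher and 0 lower came with a median of 0.90, so the size of the difference moved with that step.

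Because the RNA is from whole tissue, fewer cells of a type and less RNA per cell cannot be told apart. Of the 16 fixed markers of T and natural killer cells, 2 were higher and 2 lower, beside 14.3% of all genes called. The list joins T cell genes with natural killer cell genes, so it does not measure natural killer cells alone. Gzmb, the cytotoxic granule protease granzyme B, was at -3.32, -3.25 and -2.59 in F1 and at -5.14, -4.64 and -4.96 in C3H, a difference of 1.86 (adjusted p = 0.00109). Klrb1c, the NK1.1 receptor gene, was higher by 1.00 (adjusted p = 7.43e-05). Ncr1, an activating receptor of natural killer cells, differed by -0.75 (adjusted p = 0.0246), a call lost without any 1 of 5 of the arrays (F1 replicates 1 to 3 and C3H replicates 2 and 3, adjusted p = 0.0508 to 0.0914). The summed linear signal of the 16 markers was 3.21 to 3.46 times the 75th percentile in F1 and 2.84 to 3.27 in C3H, ranges that overlap. The part of cell number in the Ly49 difference was not tested.

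**Figure D2:**
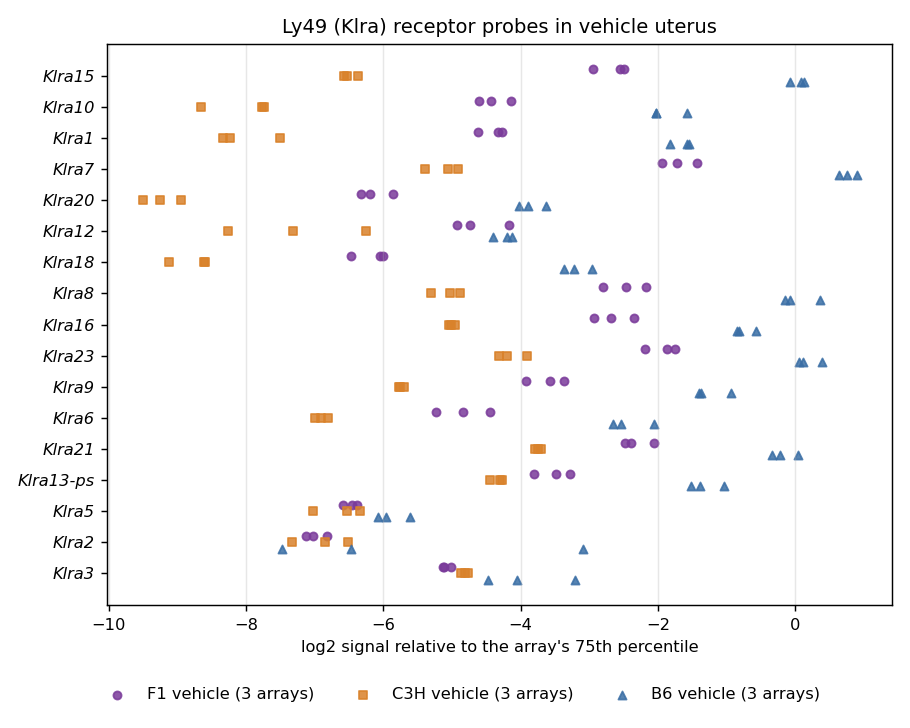
Level per array (log2 processed intensity minus the array's 75th percentile) of the 17 Ly49 genes measured in F1, C3H and B6 vehicle uterus. In 14 genes the F1 points lie above all C3H points, while Klra2, Klra3 and Klra5 show overlapping or reversed groups.

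Genes of cell division were lower in F1 as a group. Of 25 mitosis genes, 16 were lower and 1 higher, beside 8.95% and 5.34% of all genes, and their median difference was -0.71. F1 and C3H values did not overlap in 23 of 25, beside 36.1% of all genes. With median scaling 10 were lower, with a median of -0.67. Bub1, a kinase of the spindle checkpoint, stood at -4.24, -4.39 and -5.09 in F1 and at -3.54, -3.58 and -3.54 in C3H, a difference of -1.02 (SE 0.26, adjusted p = 0.0117). Ccnb2, the mitotic cyclin B2, stood at -0.66, -0.76 and -1.13 in F1 and at 0.13, -0.03 and 0.07 in C3H, a difference of -0.90 (SE 0.22, adjusted p = 0.0075). In both genes F1 replicate 3 was the lowest array. Ccnb1, cyclin B1, differed by -0.91 with adjusted p = 0.0396, and its 2 other probes gave -0.81 and -0.86.

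The exception was Bub1b, which encodes the checkpoint protein BubR1 and is named here after its values were seen. It stood at -2.26, -2.03 and -2.13 in F1, at -2.95, -2.83 and -3.20 in C3H and at -0.91, -0.63 and -0.75 in B6, a difference of 0.86 (adjusted p = 0.00234). The number of lower mitosis genes fell to between 4 and 12 when 1 array was left out, with 4 without F1 replicate 3, and to 7, 8 and 9 without C3H replicate 1, 2 and 3. The median stayed between -0.76 and -0.57. Without F1 replicate 3, Bub1 differed by -0.76 (adjusted p = 0.0779), and the Ccnb1 call was lost with any 1 of 5 arrays left out (F1 replicates 1 and 3 and all C3H arrays, adjusted p = 0.0667 to 0.149).

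DNA replication genes moved the same way and by less. Of 25, 11 were lower and 0 higher at the adjusted threshold, beside 8.95% and 5.34% of all genes. At an unadjusted p under 0.05, 17 were lower and 0 higher, and the list median was -0.27. Orc1, a subunit of the origin recognition complex, differed by -1.0 (adjusted p = 1.69e-05), Mcm10, a replication initiation factor, by -0.93 (adjusted p = 0.00167) and Uhrf1, which carries DNA methylation through replication, by -0.92 (adjusted p = 0.00161). Mcm10 stood at -1.95, -2.03 and -2.38 in F1 and at -1.12, -1.20 and -1.24 in C3H. With 1 array left out, between 7 and 13 replication genes were lower, with 7 without F1 replicate 2 or 3.

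In the estradiol arrays the groups stood differently. At 24 h after E2, 0 of 25 mitosis genes were called and their median difference was 0.23, while 14 replication genes were higher in F1 and none lower, with a median of 0.31. Of all genes, 7.77% were higher and 7.12% lower at that time. At 2 h after E2, 1 mitosis gene was higher and none lower, 3 replication genes were lower and none higher, and the medians were -0.14 and -0.06. Among all genes 6.22% were higher and 12.5% lower at 2 h. The change of the difference from vehicle to 24 h was itself called for Ccnb1 (1.54), Orc1 (1.24), Mcm10 (1.46) and Uhrf1 (1.61), beside 3.81% of all genes. These 4 genes were named for their vehicle difference, which the change subtracts.

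The 250 bases before the start of the leading mitosis genes are printed below because these genes moved together. The sequences are from RefSeq on GRCm38.p6, 5′ to 3′ along the gene, with CCAAT or its complement ATTGG and with TTTGAA or its complement TTCAAA in capitals. CCAAT is the core of the box bound by NF-Y and TTTGAA that of the cell cycle homology region in promoters of mitotic genes.
Bub1, chr2:127831860-127832109, minus strand: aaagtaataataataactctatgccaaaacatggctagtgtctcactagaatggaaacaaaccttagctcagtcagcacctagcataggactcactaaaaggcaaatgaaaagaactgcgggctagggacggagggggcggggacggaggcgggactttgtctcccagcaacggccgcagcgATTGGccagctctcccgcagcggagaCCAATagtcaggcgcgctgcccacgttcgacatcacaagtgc
Ccnb1, chr13:100786487-100786736, minus strand: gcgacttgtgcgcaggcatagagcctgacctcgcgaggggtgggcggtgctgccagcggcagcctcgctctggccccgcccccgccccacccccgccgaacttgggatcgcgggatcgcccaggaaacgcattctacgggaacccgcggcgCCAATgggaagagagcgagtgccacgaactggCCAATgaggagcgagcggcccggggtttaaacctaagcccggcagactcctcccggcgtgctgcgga
Ccnb2, chr9:70421555-70421804, minus strand: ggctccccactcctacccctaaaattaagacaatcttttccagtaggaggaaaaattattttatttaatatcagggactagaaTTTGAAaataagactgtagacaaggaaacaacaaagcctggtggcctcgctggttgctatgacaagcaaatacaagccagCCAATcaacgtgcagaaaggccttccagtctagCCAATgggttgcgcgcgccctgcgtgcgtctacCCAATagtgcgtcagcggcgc

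On either strand, CCAAT was found before 17 of the 20 mitosis genes matched in the table (85%), against 9314 of 27025 genes in all (34.5%). TTTGAA was found before 7 of 20 (35%), against 4398 (16.3%). Neither motif was particular to mitosis genes. Of 9 Ly49 genes, 6 had TTTGAA (66.7%) and 4 had CCAAT (44.4%). Of the 13 tissue kallikrein genes described below, 0 had TTTGAA and 8 had CCAAT (61.5%). The motifs do not overlap each other, and a match describes the letters in this window and no binding.

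Tissue kallikreins, secreted serine proteases several of which estrogen is known to induce in the rodent uterus, were lower in F1. Of 13 measured, 8 were lower and 0 higher at the adjusted threshold, beside 8.95% and 5.34% of all genes. At an unadjusted p under 0.05, 9 were lower and 0 higher, and the list median was -1.41. The probes of this family share long runs, as the following pair shows with its shared 23 bases in capitals, so that the values of single members cannot be kept fully apart.
Klk1b3: gatgcCATGCTGTGTGCAGGAGAGATGGaa
Klk1b26: atgtCATGCTGTGTGCAGGAGAGATGGgtg

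Klk1b3 stood at -0.38, 1.66 and 1.85 in F1, at 2.43, 2.88 and 2.48 in C3H and at -4.21, -4.76 and -4.25 in B6. F1 was below every C3H array and far above the B6 arrays, and F1 replicate 1 was the lowest of its group. The difference was -1.55 (SE 0.38, adjusted p = 0.00905). Klk1b21 and Klk1b26 had the same order, with F1 replicate 1 lowest, and differences of -1.55 (adjusted p = 0.0353) and -1.53 (adjusted p = 0.0209).

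Without F1 replicate 1, 3 kallikreins were lower and the median was -0.75, while 4 were lower without C3H replicate 2 or 3 and 6 without C3H replicate 1. Without F1 replicate 1, Klk1b21 differed by -0.82 and Klk1b26 by -0.81 (adjusted p = 0.219 and 0.131). The Klk1b21 call was also lost without any 1 of the C3H arrays, and the Klk1b26 call without C3H replicate 2 or 3. Klk10, named here after its values were seen, showed narrow groups, at -3.71, -3.76 and -3.62 in F1 and at -2.96, -3.00 and -2.86 in C3H (difference -0.75, adjusted p = 0.00175). Under E2, 2 kallikreins were lower in F1 at 2 h, and 5 were lower and 1 higher at 24 h. Of all genes, 12.5% were lower at 2 h, and 7.12% were lower and 7.77% higher at 24 h. The consensus palindromic estrogen response element was found before 17 of 27025 genes (0.0629%) and before 0 of the 13 kallikrein genes searched. An element this rare would be missing from nearly any set of 13, and the mitosis and Ly49 sets also had 0. The count therefore says nothing of the kallikreins, and the search says nothing of more distant sites or of other letters.

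Some secretory genes of the late estrogen response were higher in F1. Of 21, 6 were higher and 0 lower, beside 5.34% and 8.95% of all genes. At an unadjusted p under 0.05 there were 7 and 0, and the list median was 0.12. Ltf, which encodes lactoferrin, stood at 2.63, 1.87 and 1.48 in F1 and at 1.00, 0.78 and 1.44 in C3H, a difference of 0.92 (adjusted p = 0.0219). The lowest F1 value lay just above the highest C3H value, and the call was lost without F1 replicate 1 or C3H replicate 1 or 2 (adjusted p = 0.0726 to 0.140). Padi1, a peptidylarginine deiminase, was higher by 0.83 (adjusted p = 0.00156) and Aqp5, an aquaporin water channel, by 0.68 (adjusted p = 0.00442). Between 3 and 7 genes of this list were higher with 1 array left out, with 3 without F1 replicate 1 or C3H replicate 2. At 24 h after E2, Ltf differed by -0.07 and Aqp5 by -0.09.

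Early estrogen-response genes were near equal at baseline. Of 29, 1 was lower and 0 higher, beside 8.95% and 5.34% of all genes. At an unadjusted p under 0.05 there were 3 and 2, and the list median was -0.01. The 1 called was Adamts1, a secreted metalloprotease (-0.47, adjusted p = 0.0451), whose call was lost with any 1 of the 6 arrays left out (adjusted p = 0.0538 to 0.162). Beside the same 8.95% of all genes, 2 of 19 steroid receptors and coregulators were lower. Among them was the mineralocorticoid receptor gene Nr3c2 (-0.63, adjusted p = 0.0188, lost without F1 replicate 1 or C3H replicate 1 or 3 at adjusted p = 0.0571 to 0.0722), of which a further probe gave 0.07. The estrogen receptor gene Esr1, named after its value was seen, differed by -0.13 (SE 0.14, adjusted p = 0.598).

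Of 19 steroid-metabolising enzymes, 2 were higher and 4 lower, or 2 lower without C3H replicate 1, with a median of -0.17. Among all genes 5.34% were higher and 8.95% lower. Star, which carries cholesterol into mitochondria, stood at -2.02, -2.25 and -1.98 in F1 and at -1.36, -1.10 and -0.79 in C3H, a difference of -1.0 (adjusted p = 0.00613). Hsd11b1, which regenerates active glucocorticoid, differed by -0.44 (adjusted p = 0.0117) and lost its call without F1 replicate 3 or C3H replicate 1 (adjusted p = 0.0593 to 0.0670). The estrogen sulfotransferase gene Sult1e1 was well above background on all 3 C3H arrays and on no F1 array, and its call (adjusted p = 0.0392) was lost with any 1 of 5 arrays left out, F1 replicate 3 being the exception (adjusted p = 0.0514 to 0.203).

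Growth factor, matrix and prostaglandin lists differed in how many genes were called, beside 14.3% of all genes. Of 26 WNT pathway genes, 4 were lower and 1 higher: the WNT inhibitors Sfrp1 (-0.91, adjusted p = 0.00104) and Dkk2 (-0.60, adjusted p = 0.0109) were lower and the ligand Wnt11 was higher (0.81, adjusted p = 0.00214). Sfrp1 stood at 0.41, 0.18 and 0.22 in F1, at 1.01, 1.24 and 1.29 in C3H and at -0.79, -0.79 and -0.55 in B6, and a further Sfrp1 probe gave -0.23. In the IGF system 1 of 13 was called, Igfbp6, an IGF binding protein, which was higher by 0.88 (SE 0.11, adjusted p = 1.08e-05).

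Among 20 matrix proteases and inhibitors 3 were lower, including the inhibitor gene Timp3 (-0.52, adjusted p = 0.00207) and the membrane protease gene Mmp14 (-0.49, adjusted p = 8.72e-05). A further Mmp14 probe gave 0.15. Of 27 collagens and matrix genes none was called by limma, with 0 higher and 3 lower at an unadjusted p under 0.05. Of 21 prostaglandin genes 4 were lower and 0 higher (5 and 2 unadjusted), led by the prostacyclin receptor gene Ptgir (-0.91, adjusted p = 0.00309) and including the prostaglandin D synthase gene Ptgds (-0.56, adjusted p = 0.00839). A further Ptgir probe gave 0.06 (SE 0.20), so the difference belonged to 1 of 2 probes.

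Of 39 glutathione and xenobiotic genes, 5 were higher and 2 lower, with a median of 0.04. That is near the 14.3% called among all genes. Where no scaling was applied, 3 were higher. Cyp2f2, a cytochrome P450 best known from the airway, stood at 1.16, -0.06 and -0.11 in F1 and at -1.16, -1.36 and -1.25 in C3H, a difference of 1.58 (SE 0.25, adjusted p = 0.000158). Gpx3, the secreted glutathione peroxidase, stood at 2.39, 2.34 and 2.28 in F1 and at 1.37, 1.46 and 1.41 in C3H, a difference of 0.93 (SE 0.10, adjusted p = 1.78e-06). Both differences were near 0 at 24 h after E2, at 0.12 and 0.08.

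Lists of immunity genes outside the Ly49 family are set beside the 14.3% of all genes called, 5.34% higher and 8.95% lower. Of 22 interferon-induced genes 3 were lower and 0 higher, 11 lower and 0 higher at an unadjusted p under 0.05, with a median of -0.51. Ifi44 differed by -0.94, Oas3 by -0.90 and Mx2 by -0.61, and none of these calls was stable to leaving out an array (adjusted p = 0.0609 to 0.164). Ifi44 lost it without replicate 1 or 3 of either genotype, Oas3 without any 1 array but F1 replicate 2, and Mx2 without any 1 but C3H replicate 2. With median scaling 1 of the 22 was lower, and a further Ifi44 probe gave -0.24. The DNA-sensing family gene Ifi205 was higher by 1.07 (adjusted p = 0.0019), the 1 called of 17 interferon-inducible GTPase and HIN-200 genes, while a further Ifi205 probe, well above background on all 6 arrays, gave -0.60 (SE 0.39). Of 18 class I and antigen presentation genes 1 was lower, H2-T24, and its call was lost without F1 replicate 1 or 2 or C3H replicate 1 or 2 (adjusted p = 0.0825 to 0.120). None of the 10 class II genes on the list was called by limma, with 1 higher and 1 lower at an unadjusted p under 0.05. The called genes H2-Ea and H2-Q8, given above, are outside the class I and class II lists.

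Of 35 chemokines and cytokines, 3 were higher and 2 lower. Ccl27a, a chemokine gene of epithelia, stood at 0.99, 0.82 and 0.85 in F1 and at 0.07, -0.15 and -0.07 in C3H, a difference of 0.94 (SE 0.08, adjusted p = 4.36e-08). Csf3, the granulocyte growth factor, was higher by 0.93 (adjusted p = 0.000173). C3H/HeJ mice are known for a mutation in the endotoxin receptor Tlr4, and of 17 endotoxin sensing genes the 1 called was the adaptor Myd88 (0.28, adjusted p = 0.0343, lost with any 1 of the 6 arrays left out at 0.0560 to 0.101). Tlr4 itself, named after its value was seen, differed by 0.00 (SE 0.09). Of 18 retrovirus restriction and nucleic acid sensing genes 3 were higher and 1 lower: beside Trim12a, the inflammasome sensor Naip5 was higher by 0.78 (adjusted p = 0.00598) and the capsid-binding restriction factor Fv1 lower by 0.74 (SE 0.08). Fv1 stood at -4.56, -4.46 and -4.47 in F1, at -3.62, -3.82 and -3.83 in C3H and at -5.30, -5.17 and -5.42 in B6.

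The remaining lists stand beside the same 14.3% of all genes called. Cd59a, a membrane inhibitor of complement, was the 1 lower of 21 complement genes (-0.32, adjusted p = 0.00119). Of 19 clock genes 2 were higher, the core factor Arntl (0.62, adjusted p = 0.0118, or 0.48 with 0.0824 without C3H replicate 1) and Npas2 (0.52, adjusted p = 0.0387, lost without any 1 array but F1 replicate 1 at 0.0711 to 0.155). Of 30 imprinted genes 3 were higher and 2 lower, including the placental growth regulator Phlda2 (0.95, adjusted p = 0.00058) and the noncoding gene Mirg (0.64, adjusted p = 0.00514). Of 30 Hox genes 4 were higher and 0 lower (5 and 0 unadjusted), including Hoxd3 (0.51, adjusted p = 0.000772) and Hoxb6 (0.36, adjusted p = 0.00629). Further probes gave -0.39 for Hoxd3 and 0.16 for Hoxb6. The count fell to 2 without F1 replicate 2 or 3 or C3H replicate 2 or 3, and to 2 with no scaling.

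Housekeeping lists showed no called gene by limma. The counts at an unadjusted p under 0.05 were 0 higher and 1 lower of 27 ribosomal protein genes, 1 higher and 4 lower of 28 respiratory chain genes, and 1 higher and 0 lower of 13 heat shock genes.

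Among the markers of cell types, the adipocyte and smooth muscle lists held 6 calls each. The marker counts here and below stand beside 14.3% of all genes called, 5.34% higher and 8.95% lower. Of 12 adipocyte markers 6 were higher and 0 lower (8 and 1 at an unadjusted p under 0.05), with a median of 2.75, but the arrays within a genotype differed greatly. Adipoq, the fat hormone adiponectin, stood at 3.16, 0.91 and 1.62 in F1 and at -2.64, -3.01 and 1.19 in C3H, beside 2.39, 2.70 and 1.48 in B6. C3H replicate 3 stood near the F1 arrays and F1 replicate 1 was the highest. The differences of Adipoq (3.38), Cidec of the lipid droplet coat (3.16) and the hormone resistin, Retn (3.12), had SEs of 0.96 to 1.04 and adjusted p of 0.034 to 0.0454. The summed linear signal of the 12 markers was 142, 34.3 and 44.6 times the 75th percentile in F1 and 5.83, 5.46 and 42.7 in C3H.

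Without F1 replicate 1 or 3 or C3H replicate 1 or 2 no adipocyte marker was called by limma, with 7 or 8 higher at an unadjusted p under 0.05, and without C3H replicate 3 there were 8. At 24 h after E2 the median difference was -0.04. Ucp1, the defining gene of brown fat, was not well above background on any of the 6 arrays. The part of fat tissue in other differences was not tested.

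Of 14 myometrium and smooth muscle markers 6 were lower and 0 higher (10 and 0 unadjusted), beside 8.95% and 5.34% of all genes. The list median was -0.29. With median scaling 1 was lower and with quantile normalization 3, with medians of -0.26 and -0.25. Their summed signal was 576 to 637 in F1 and 718 to 775 in C3H, without overlap. Synpo2, an actin-binding protein of the Z-disc, stood at 1.83, 1.76 and 1.82 in F1 and at 2.19, 2.5 and 2.47 in C3H, a difference of -0.58 (adjusted p = 0.00349). The 3 other Synpo2 probes gave -0.02, -0.24 and -0.07, so this difference belonged to 1 of 4 probes. The oxytocin receptor gene Oxtr (-0.54) and calponin, Cnn1 (-0.38), were called at adjusted p = 0.0267 and 0.0344 and each lost the call with any of 4 arrays left out (0.0531 to 0.157), for Oxtr replicates 2 and 3 of either genotype and for Cnn1 F1 replicates 1 and 2 and C3H replicates 2 and 3. With 1 array left out, 1 to 4 markers were lower, with 1 without F1 replicate 2 or C3H replicate 3, and the median stayed between -0.34 and -0.24.

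Epithelial markers had 1 higher of 14, Krt19 (0.39, adjusted p = 0.0313, lost without any 1 array but F1 replicate 3 at 0.0520 to 0.148), with summed signals of 146 to 173 in F1 and 142 to 157 in C3H. Stromal markers had 1 lower of 12, Thy1 (-0.37, adjusted p = 0.00279, and -0.01 with a further probe), with sums of 438 to 450 and 449 to 480. None of 14 endothelial and 15 macrophage markers was called by limma, with 0 higher and 0 lower and 0 higher and 2 lower at an unadjusted p under 0.05. Of 10 B and plasma cell markers the joining chain gene Jchain was lower (-1.37, adjusted p = 0.047, lost with any 1 of the 6 arrays left out at 0.0506 to 0.157), and the list's sums of 8.02 to 9.81 in F1 and 12 to 16.1 in C3H did not overlap. Red cell markers had 2 lower of 3, Slc4a1 and Hba-a1, both lost without replicate 1 of either genotype, C3H replicate 3 or a further F1 array (3 for Slc4a1, 2 for Hba-a1, adjusted p = 0.0527 to 0.122), with sums of 11.1 to 14.5 in F1 and 16.4 to 21.9 in C3H, which did not overlap. Of 11 nerve markers Uchl1 was higher (0.95, adjusted p = 3.06e-05) and 2 were lower, among them Sox10 of Schwann cells (-0.67, adjusted p = 0.000316).

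Of 14 granulocyte and mast cell markers 1 was higher, Fcer1a, and 2 lower, Mpo and Tpsb2, and each call was lost with arrays left out in turn (adjusted p = 0.0549 to 0.198), for Mpo any 1, for Fcer1a any 1 but F1 replicate 2, and for Tpsb2 F1 replicate 2 or 3 or C3H replicate 1 or 3. Skeletal muscle markers had 1 higher, Myl1, and 3 lower of 11, or 1 lower with the added normexp correction, including the muscle creatine kinase Ckm (-1.03, adjusted p = 0.00187). None of 8 mesothelium and 9 liver and pancreas markers was called by limma, with 0 at an unadjusted p under 0.05 as well, and 1 of 10 ovary and oviduct markers, Fshr, was lower without being well above background on any F1 array, a call lost without any 1 array but F1 replicate 1 (adjusted p = 0.0539 to 0.229), with sums over the list of 1.93 to 2.71 in F1 and 1.80 to 1.85 in C3H.

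**Figure D3:**
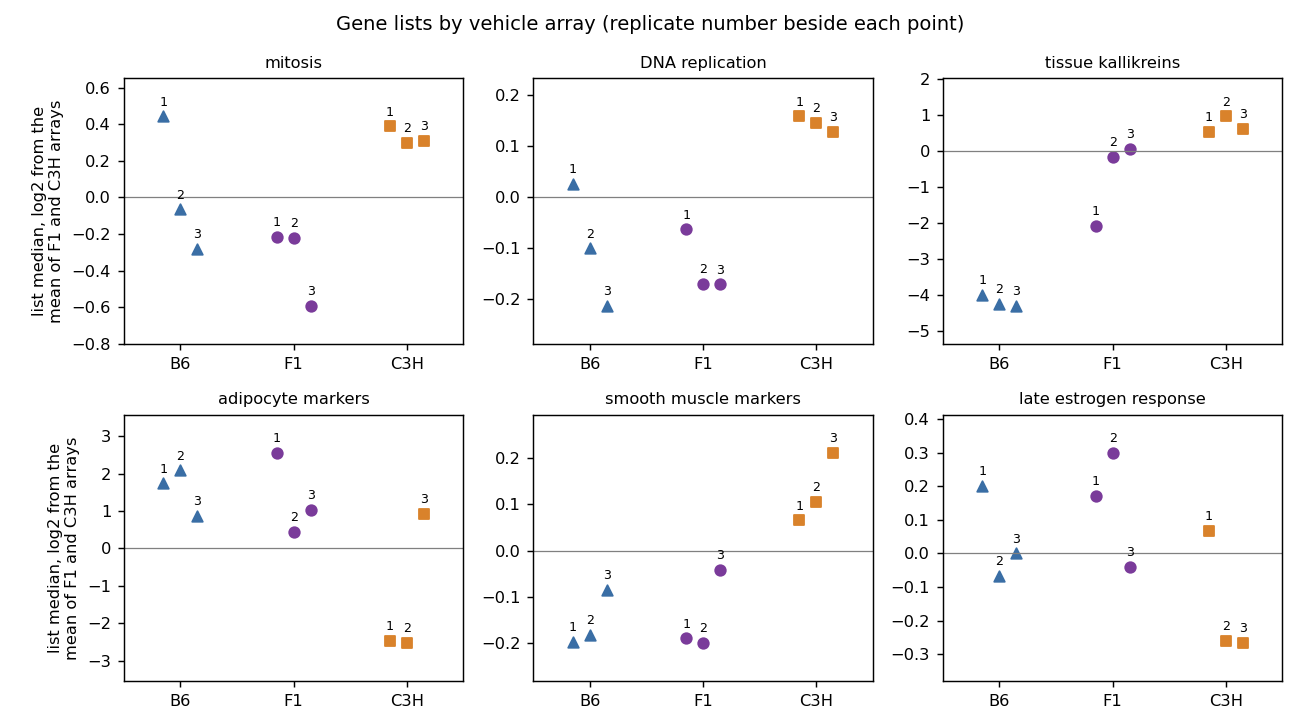
Median level over a gene list on each vehicle array, as the log2 difference from the mean of the F1 and C3H arrays (vertical axis), for B6, F1 and C3H, with the replicate number beside each point. For mitosis, DNA replication, kallikreins and smooth muscle the 3 F1 points lie below the 3 C3H points, and for adipocyte markers C3H replicate 3 lies among the F1 points.

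The arrays of E2-treated animals give the same genotype contrast in other samples, whose values entered the vehicle calls through the gene filter and the estimate of the spread. At 2 h after E2, 4083 genes (18.7%) were called between F1 and C3H, 6.22% of the genes higher and 12.5% lower, and at 24 h 3255 (14.9%), 7.77% higher and 7.12% lower. Of the 306 genes at least 2-fold higher in vehicle, 253 (82.7%) were called higher at 2 h and 240 (78.4%) at 24 h, and 221 (72.2%) at both. Of the 508 at least 2-fold lower, 238 (46.9%) were called lower at 2 h and 59 (11.6%) at 24 h, and 39 (7.68%) at both. The difference between these shares was not tested.

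The size of the difference followed the same course. Over the 306 higher genes the median was 1.74 in vehicle, 1.54 at 2 h and 1.41 at 24 h, and over the 508 lower genes it was -1.27, -0.84 and 0.05. The change from vehicle to 24 h was called for 35 of the 306 and for 197 of the 508, against 833 of all genes (3.81%), and the change to 2 h was called for 49 genes in all (0.224%). Both sets were picked for a large vehicle difference, which this change subtracts, so part of these counts and of the smaller medians after E2 follows from that choice. With 1 E2 array left out, 73.5% to 76.1% of the higher and 9.25% to 11% of the lower genes were called at 24 h. At 2 h the lower genes fell from 46.9% to 29.3%, 29.5%, 29.7% and 30.7% without F1 replicate 2 or 3 or C3H replicate 1 or 2, and the higher genes stayed between 75.8% and 79.4%.

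These shares moved with the background correction. With normexp fitted without spots of uneven local background, chosen after seeing the data, 125 genes were at least 2-fold higher and 40 lower in vehicle, and 84.0% and 70.0% of them were called at 24 h. At 2 h the shares were 93.6% and 45.0%. The F1 and C3H arrays of the same treatment share no slide at 2 h or 24 h either.

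**Figure D4:**
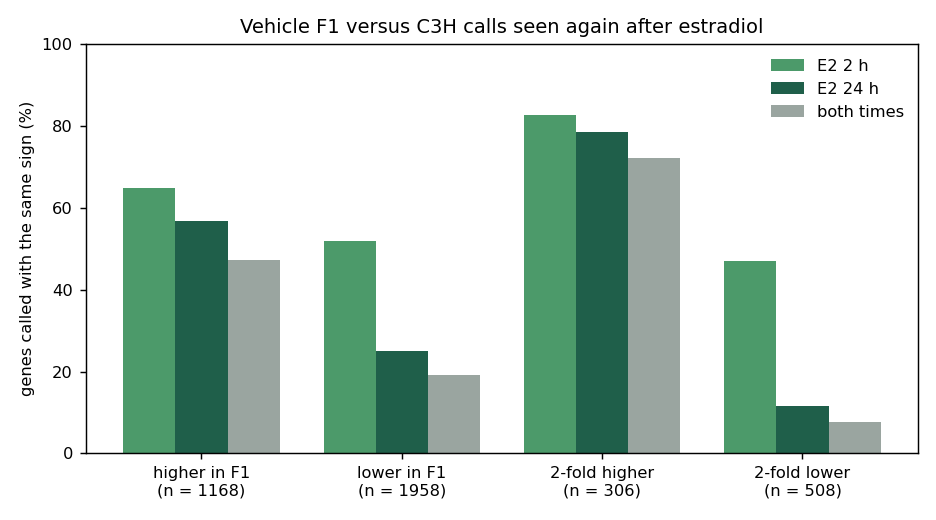
Percentage of the genes called between F1 and C3H in vehicle that were called with the same sign after E2 (vertical axis), at 2 h, at 24 h and at both, for all calls and for those of at least 2-fold. Bars are shares of genes with no error bar, and at 24 h they stand at 78.4% for the 2-fold higher and 11.6% for the 2-fold lower genes.

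Where a gene stood on the intensity scale was related to its direction. The genes were put into 4 bins of equal number by mean level on all arrays. From the dimmest bin, 235 higher and 804 lower, 375 and 619, 345 and 304, and 213 and 231 genes were called, or 19%, 18.2%, 11.9% and 8.12% of each bin. The median difference was -0.25 in the dimmest bin and between -0.05 and -0.01 in the other 3. With the added normexp correction the same bins held 196 and 201, 360 and 484, 310 and 286, and 190 and 221 calls. In the dimmest bin the median was -0.36 at 2 h and 0.06 at 24 h after E2.

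The odorant receptor genes, a family singled out after its values were seen, showed many lower calls. Of 396, 3 were higher and 119 lower (30.8% called, beside 14.3% of all genes), with a median of -0.63. Under the added normexp correction the counts were 3 and 30, with a median of -0.10. With the processed signal the median was -0.89 at 2 h and 0.26 at 24 h after E2. The part of dim signal in the lower calls was not tested beyond these values.

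**Figure D5:**
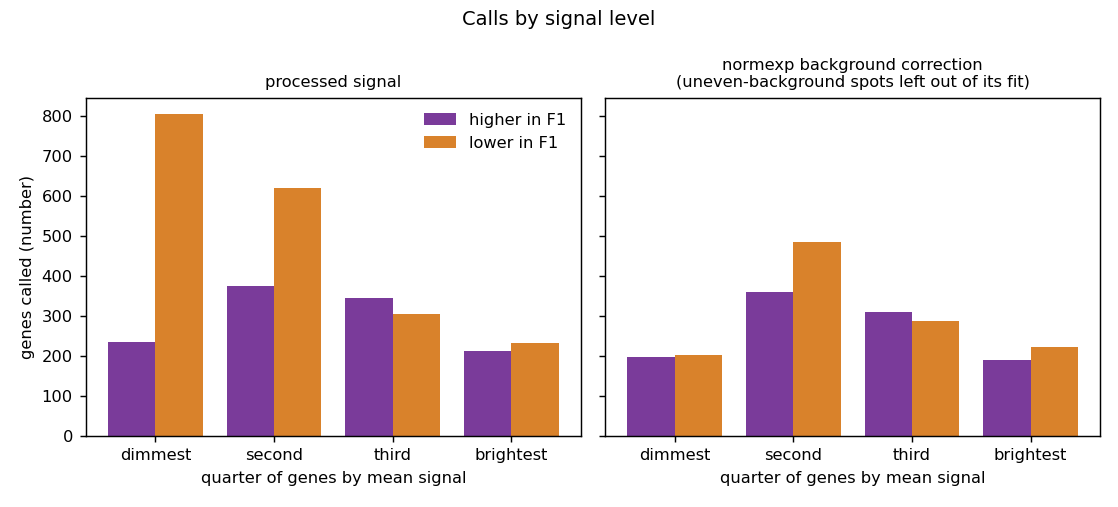
Number of genes called higher and lower in F1 (vertical axis) in each of 4 bins of genes by mean level, for the processed signal and for normexp fitted without spots of uneven local background. The dimmest bin holds 804 lower genes with the processed signal and 201 with normexp.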

How the data were processed

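RNA of whole uterus was labelled with Cy3 and hybridised to 1-colour Agilent mouse arrays, per the labels' protocols, from 500 ng of total RNA. The deposited scanner files give spot intensities that the authors extracted with Feature Extraction (9.5 per the submitters' processing notes, 9.5.3.1 per the file headers), which subtracts a background and leaves no array-to-array scaling. On the F1 arrays 5365 to 6259 spots, and on the C3H arrays 4286 to 5473, carry a surrogate value in place of a signal too near to background. On these 6 arrays 48 to 85 outlier spots were left out. The number of arrays limits the precision.

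From the 45018 spots per array, 1639 control spots were left out and spots of the same probe averaged. The log2 intensity had each array's 75th percentile of non-control spots subtracted. A probe was kept where every array of 1 or more of the groups showed it well above background (32901 of 41174), and 1 probe per gene gave 21866 genes, 46 of them with a missing value on some array. Names came from RefSeq tables for 22951 probes by accession, 6659 by symbol and 3109 by synonym, and from the files for 8455.

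limma 3.58.1 in R 4.3.3 (lmFit and eBayes, with 18 residual and 1.951 prior degrees of freedom) was fitted to 9 group means over 27 arrays, and p-values were adjusted by Benjamini-Hochberg over all genes, with calls under 0.05. The files hold intensities, as planned for. Marker sums add linear signals. The members, gene lists and tests were chosen with earlier results of these data known. Genes were named by rule: among genes with a standard symbol, the 12 largest called differences per direction that were well above background on all 6 arrays and did not overlap, the 4 largest bounds per direction where 1 genotype was below background, up to 3 called members of each list, and the check genes. Some genes that the rule picks are not reported here. Names outside the rule are marked as chosen after their values were seen.

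The alternatives were other background corrections, scalings, filters and probe rules, fewer arrays in the fit, slide or replicate number as a block, and each array left out. Replicate numbers did not pair the samples. On simulated data with 21820 genes for the vehicle comparison, the fit recovered 52 of 100 genes changed by 0.5 log2 and 80 of 100 changed by 1 log2, with 5 unchanged genes called. Sequences were searched with Python 3.11.15 and pandas 2.3.3. Exon annotation on mm7 was not used here.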

Additional observations from a re-analysis of the deposited data

Results flagged for a closer look

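For the following named genes the F1 minus C3H difference itself changed between vehicle and E2 animals, by limma's interaction term with Benjamini-Hochberg adjustment over all genes. These genes were named for a called vehicle difference, which the change subtracts, so part of the change toward 0 follows from that choice. Over all genes the change was called for 0.224% at 2 h and 3.81% at 24 h. The values are log2 changes of the difference, and no F1 and C3H group of the same treatment shared a slide.

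At 2 h after E2, the difference of Olfr339 changed by -2.57 (from 3.17 to 0.61, adjusted p = 4.06e-06) and that of H2ap by -2.54 (from 2.75 to 0.21, adjusted p = 7.7e-07). That of Syn2 changed by 2.70 (from -2.56 to 0.14, adjusted p = 0.000156).

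At 24 h the differences of several genes that stood higher in F1 shrank. Rit2 changed by -1.65 (adjusted p = 0.00121), Atp6v1c2 by -1.25 (adjusted p = 0.000499), Cyp2f2 by -1.46 (adjusted p = 0.0255), Gpx3 by -0.85 (adjusted p = 0.00301), Csf3 by -0.85 (adjusted p = 0.0268), Aqp5 by -0.77 (adjusted p = 0.0496) and Hoxd3 by -0.49 (adjusted p = 0.0428). Rit2 and Atp6v1c2 still differed by 1.38 and 1.66 at 24 h, and the other 5 stood between -0.09 and 0.12.

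Genes lower in F1 moved up at 24 h. Snx10 changed by 2.28 (adjusted p = 0.00301), Syn2 by 1.40 (adjusted p = 0.0196) and Thy1 by 0.46 (adjusted p = 0.0268). Of the odorant receptor genes, Olfr1215 changed by 1.86 (adjusted p = 0.0463), Olfr1349 by 2.13 (adjusted p = 0.0112) and Olfr689 by 2.67 (adjusted p = 0.0309). Olfr1349 and Olfr689 were not well above background on any F1 vehicle array, so the sizes of their changes are not measured values.

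The division genes Ccnb1, Orc1, Mcm10 and Uhrf1 changed by 1.54, 1.24, 1.46 and 1.61 (adjusted p = 0.0396, 0.00138, 0.00462 and 0.00223), and the neuronal tubulin gene Tubb3 by 0.69 (adjusted p = 0.0156). Their differences went from -0.91, -1.0, -0.93, -0.92 and -0.36 in vehicle to 0.64, 0.24, 0.54, 0.69 and 0.33.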

How the results depend on the processing

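Slide and genotype cannot be told apart, dim genes carry most of the lower calls, and 38 of the 109 named genes lost their call with at least 1 of the 6 arrays left out, while 0 changed sign. With 1 array of the contrast left out, vehicle calls numbered 2116 to 2495 (868 to 1015 higher, 1243 to 1556 lower), those at 2 h 2523 to 3601 and those at 24 h 2379 to 3422. The lower vehicle genes were fewest without F1 replicate 2 (1278) or C3H replicate 1 (1243) or 3 (1248), and the calls at 2 h without F1 replicate 2 (2523) or 3 (2676). With normexp, few genes were called: 78 in vehicle (64 higher, 14 lower), 134 at 2 h and 201 at 24 h. That fit was compressed on 7 arrays by up to 19 spots of uneven local background, and fitted without such spots (chosen after seeing the data) it called 2248 genes, 1056 higher and 1192 lower. Under the first normexp fit the differences of Olfr1349 (0.019), Olfr689 (0.015), H2-Ea (0.0040), H2-T24 (0.092), Oas3 (0.079), Sult1e1 (0.073), Orc1 (0.016), Magel2 (0.19), Ptgs2 (0.11), Oxtr (0.031), Myh1 (0.13), Tubb3 (0.017), Fshr (0.20) and Pde6b (0.16) reversed, and 87 other named genes lost their call. The second fit kept the side of the threshold for 91 of 109, median scaling for 99, quantile for 95, no scaling for 101, no dim-probe filter for 95 and the mean over probes for 98. No scaling gave 699 higher genes in vehicle and 1973 calls at 24 h, and fitting only the 6 arrays of a contrast 2108 at 24 h. Over the genes above the median mean level (chosen after seeing the data), which tests fewer genes, 1069 were called in vehicle (545 higher, 524 lower), 1434 at 2 h and 2018 at 24 h. With the replicate number as a block, 3194 genes were called in vehicle (1216 higher, 1978 lower), 4194 at 2 h and 3375 at 24 h. The numbers did not pair the samples, since the correlations of same-numbered deviations were -0.0118, 0.187 and -0.11. The cause of these differences was not tested beyond what is stated.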

Other observations

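Over the autosomes and chromosome X, called genes made up from 9.65% of the genes tested on chromosome X to 17.1% on chromosome 14, and none of the 3 mitochondrial and 2 chromosome Y genes was called. Among 968 windows of 2 Mb with at least 6 genes, the highest share of calls was on chromosome 6 from 130000001 to 132000000 (mm7), which holds most of the Ly49 genes, with 16 of 21 genes called, 14 higher and 2 lower. Other windows with high shares held few genes: 5 of 7 called on chromosome 12 from 114000001 to 116000000, 5 of 7 on chromosome 17 from 36000001 to 38000000, where all 5 were lower and 4 of them were odorant receptor genes, and 4 of 6, all higher, on chromosome 1 from 68000001 to 70000000. On chromosome 19 from 22000001 to 24000000, 10 of 18 genes were called. The windows were ranked after the calls were made and have no test.

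Further gene families were counted after the values were seen, beside the background of 14.3%. Of 326 zinc finger (Zfp) genes, 29 were higher and 16 lower (13.8%). Of 58 keratin and keratin-associated genes 4 were higher and 8 lower, and of 14 immunoglobulin variable genes 1 was lower. Vomeronasal receptor genes had 1 higher and 11 lower of 42 (28.6%) and taste receptor genes 5 lower of 6 (83.3%), with medians of -0.44 and -1.01. With the added normexp correction 5 and 3 were lower, with medians of -0.06 and -0.29. At 24 h after E2 the medians with the processed signal were 0.20 and 0.33.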
